A study of Mus musculus with 2 samples.

Results

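The kinesins are the motor proteins that use ATP to move along, or to shorten, microtubules. They were compared between 1 culture of NIH3T3 cells that had received an shRNA retrovirus against CCR4b (also named CNOT6L, a deadenylase of the CCR4-NOT complex) and 1 culture that had received a control RNAi retrovirus. Members were all probe sets whose only annotated gene symbol was Kif or Kifc followed by a digit, which gave 104 of the 45101 probe sets and 41 of the 18194 genes. NIH3T3 is an immortalised mouse fibroblast line, and both cultures were grown in DMEM with 10% serum. The labels name no clone, time after infection or second culture. Each group is 1 array, which gives neither a replicate error nor a test, so "lower" and "higher" describe this pair of arrays, always as CCR4b RNAi over control RNAi.

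Kinesins fall into families that share a motor domain but do different work. Mitotic kinesins push spindle poles apart, move and align chromosomes, trim microtubule ends and build the midzone at which the cell divides, and many of their mRNAs peak late in the cell cycle. Transport kinesins carry vesicles, organelles, mRNAs and ciliary cargo towards microtubule plus ends, for the most part, and are needed in dividing and resting cells alike. By known role, 14 members were listed as spindle and cytokinesis kinesins, 18 as cargo transport kinesins and 9 as other kinesins, which work in cilia, Hedgehog signalling and at centrioles or have roles in several of these.

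Signals are probe set intensities in arbitrary units. The table has no detection calls, so a floor of 8.07 units, the median of all values on both arrays, separated measured from unmeasured probe sets. A gene was measured if a probe set reached the floor on at least 1 array, and its brightest such probe set stood for it. Where the dimmer array lay under the floor, the floor took its place, and the resulting bound is given as "at least". Of the 41 kinesin genes, 35 were measured, 28 of them above the floor on both arrays. The targeted gene Cnot6l was lower on each of its 4 probe sets, by 2.38-fold on the brightest (102 and 43.0 units). All 10 fibroblast markers examined were above the floor on both arrays. Of markers of other cell types, 0 of 8 neuronal, 1 of 6 epithelial and 2 of 5 leukocyte genes were above it on both arrays. They were Epcam (19.4 units in the control, 29.5 in the depleted culture, on a probe set open to cross-hybridisation), Adgre1 (13.7 and 9.13 units) and Cd68 (24.0 and 9.42 units, 2.55-fold lower). Cdh1, Krt8, Ptprc, Cd3e and Itgam were below it on both. The summed signal of Adgre1 and Cd68 was 37.7 and 18.5 units, lower as the spindle kinesins were, and its part in the results was not tested. The 3' to 5' signal ratio, a measure of RNA integrity, was 1.35 (control) and 1.46 (CCR4b RNAi) for Actb, and 0.824 and 0.819 for Gapdh.

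Most spindle and cytokinesis kinesins were lower after CCR4b RNAi, whereas no cargo transport kinesin passed 2-fold on its brightest probe set with this floor. Of 11 measured spindle and cytokinesis kinesins, 8 were lower by 2-fold or more and 0 were higher by as much. Over all 11991 measured genes, the shares were 4.51% for 2-fold lower and 3.78% for 2-fold higher. Of 16 measured cargo transport kinesins, 0 passed 2-fold in either direction, which at such low shares does not set them apart from all measured genes. The ratios of Kif1a, Kif5a and Kifc2 are bounds, and single dimmer probe sets of Kif16b and Kif5b were over 2-fold higher. The median log2 ratio was -1.21 for the spindle and cytokinesis kinesins and 0.15 for the cargo transport kinesins, beside -0.069 for all measured genes. The medians thus lay 1.36 log2 units, or 2.57-fold, apart. Where both arrays were above the floor, the spindle and cytokinesis kinesins spanned log2 ratios of -1.68 to 0.010 and the cargo transport kinesins -0.30 to 0.74, so the ranges overlapped. The overlap came from Kif18a, the next highest spindle kinesin being Kif4 at -0.90. The difference of medians lay between -1.42 and -1.10 under 8 other ways of scaling, flooring and choosing probe sets. With the floor lowered to the 25th percentile, 2.14 units, 3 of 17 measured cargo transport kinesins were 2-fold higher, from dim signals. Over all genes measured at that floor, 1845 of 16289 were 2-fold higher.

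**Figure D1:**
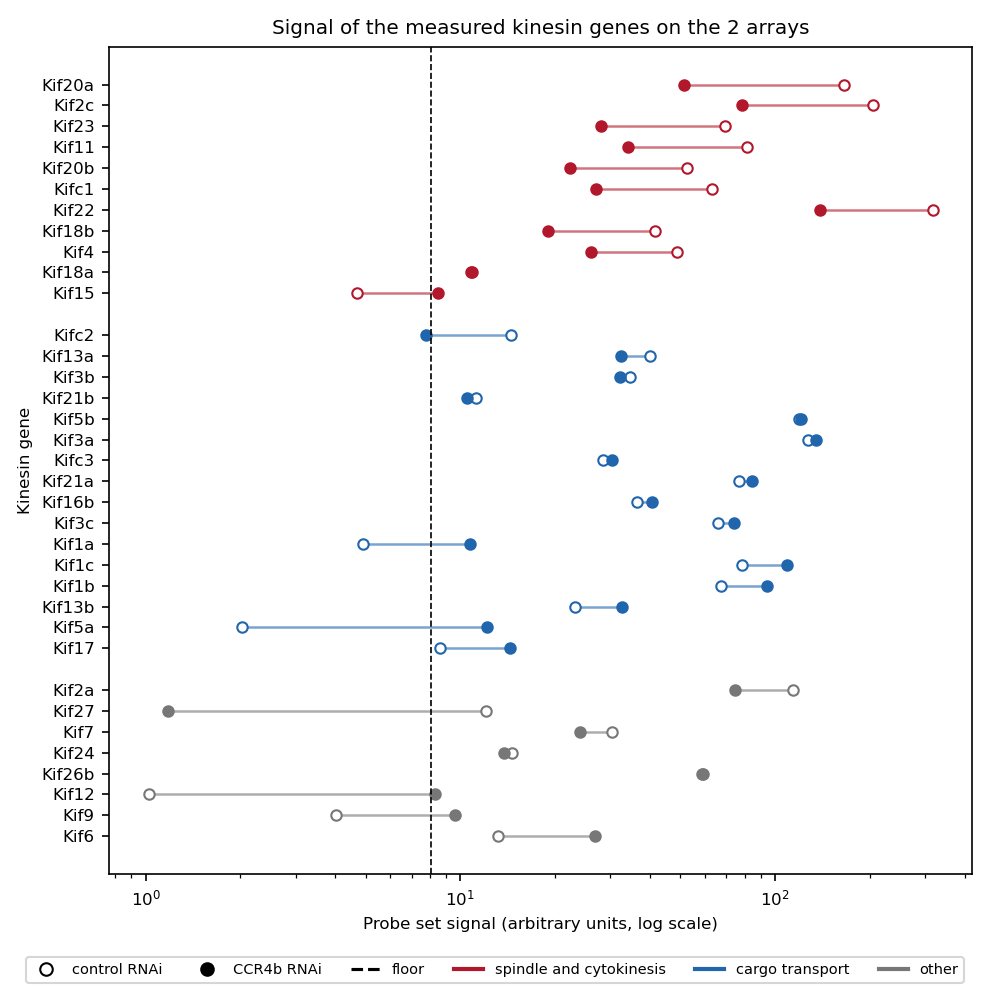
Probe set signal (horizontal, arbitrary units, log scale) of each of the 35 measured kinesin genes on the control RNAi array (open circles) and the CCR4b RNAi array (filled circles), 1 array each. The dashed line is the floor of 8.07 units. Of the spindle and cytokinesis kinesins, 9 of 11 moved to the left, while the cargo transport kinesins kept closer pairs of signals, except where one circle is left of the floor.

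Signals below are given as control first and CCR4b-depleted second. Among the motors that build the spindle, those clear of the floor were lower. Kif11, also called Eg5, slides antiparallel microtubules to separate the spindle poles. Its signal was 81.5 units in the control and 34.0 in the depleted culture, 2.40-fold lower. Its other probe sets read 74.0 and 32.5 units, and 64.8 and 20.2 units, so all 3 were at least 2-fold lower. Kifc1, a minus-end motor of the kinesin-14 family that focuses spindle poles, read 62.8 and 27.1 units, 2.32-fold lower. Its only probe set can hybridise to several transcripts, and the near-identical gene Kifc5b was below the floor on both arrays (highest signal 3.80 units), so the Kifc1 value may include signal of related genes. Kif15 can take over pole separation when Kif11 fails. It read 4.71 and 8.53 units, too close to the floor for a ratio of its own.

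The chromosome-arm motors, or chromokinesins, were both lower. Kif22, also called Kid, binds DNA and pushes chromosome arms away from the poles. It read 317 and 139 units in the control and depleted cultures, 2.29-fold lower. This brightest probe set and the next (93.6 and 24.8 units) are open to cross-hybridisation, whereas the remaining one is not and read 49.5 and 18.6 units, with a log2 ratio of -1.42. Kif4, a kinesin-4 that also works at the midzone with the bundling protein PRC1, read 48.7 and 26.0 units on its single probe set. At 1.87-fold lower, it was the one lower member of this group that did not reach 2-fold.

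The mitotic motors that shorten microtubule ends were lower where they were clear of the floor. Kif2c, also called MCAK, removes tubulin from microtubule ends at centromeres. It read 204 and 78.6 units, 2.60-fold lower, on a probe set open to cross-hybridisation. Probe sets not of that kind read 145 and 47.7 units, and 105 and 41.7 units, and were also over 2-fold lower. A 4th probe set of Kif2c lay at the floor (7.75 and 9.44 units). Kif18b, which shortens astral microtubules, read 41.6 and 19.0 units, 2.19-fold lower. Its kinesin-8 relative Kif18a, which limits the swings of chromosomes at the metaphase plate, read 10.8 and 10.9 units, close to the floor on both arrays. Its log2 ratio of 0.010 turned negative under each of the 3 other scalings, to between -0.094 and -0.042, so it has no direction here.

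The motors of the midzone and of cytokinesis were lower wherever they were above the floor. Kif20a, also called MKLP2, brings the chromosomal passenger complex to the midzone. It read 165 and 51.5 units, 3.20-fold lower on its only probe set, which was the lowest ratio of a kinesin's brightest probe set where neither array lay under the floor. Kif23, also called MKLP1, is the motor of the centralspindlin complex. It read 69.4 and 27.9 units, 2.49-fold lower, and its second probe set went from 11.8 units to below the floor, at least 1.47-fold lower. Kif20b, a further kinesin-6, read 52.5 and 22.3 units, 2.36-fold lower, and its second probe set went from 14.9 units to below the floor, at least 1.85-fold lower. The cytokinesis motor Kif14 and the mitotic depolymerase Kif2b stayed below the floor on both arrays, at no more than 0.960 and 0.876 units, so neither has a ratio.

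The 11 measured spindle and cytokinesis kinesins lay between percentiles 0.55 and 61.9 of the log2 ratios of all measured genes. Kif4 lay at 5.65, Kif18a at 56.7 and Kif15 at 61.9. The 8 that were at least 2-fold lower lay at 2.99 or below, but that rule itself places a gene among the lowest 4.51%. The robust SD (a scaled median absolute deviation) of log2 ratios among genes of like signal was between 0.41 and 0.58 for these 8 genes. Counted by probe set, 15 of the 16 that were above the floor on both arrays were lower, and 14 of them at least 2-fold. The exception was that of Kif18a. Kif11, Kif2c and Kif22 gave 3 probe sets each, so the 16 do not stand for separate genes. The share over all probe sets was not counted. With the floor raised to the 75th percentile, 35.8 units, 4 of 9 measured genes of this group were at least 2-fold lower, since the depleted-culture signals of most of them then lie below the floor. Over all genes measured at that floor, 266 of 7300 were at least 2-fold lower.

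**Figure D2:**
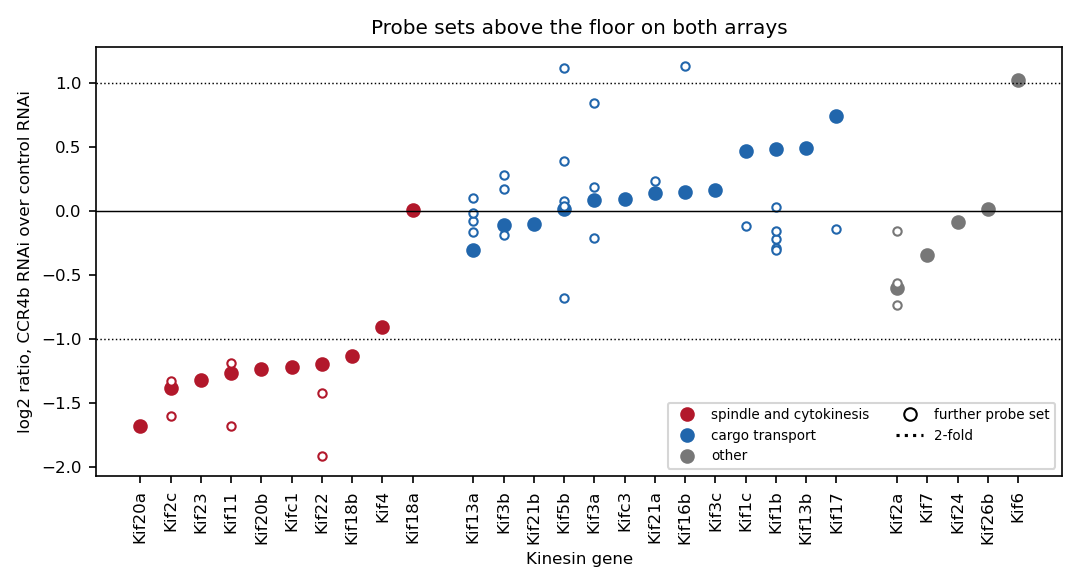
log2 ratio of CCR4b RNAi over control RNAi (vertical) for each kinesin probe set above the floor on both arrays, by gene. Filled circles stand for the gene, open circles are its further probe sets, and dotted lines mark 2-fold. The probe sets of Kif11, Kif2c and Kif22 all lie below -1, whereas those of Kif5b, Kif3a, Kif3b and Kif1b lie on both sides of 0.

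Promoter sequences of the kinesins were examined because most of the spindle and cytokinesis kinesins differed together. Promoters that switch genes on late in the cell cycle often carry a CHR element, bound by the DREAM and MuvB complexes, a short way from the start of transcription, and CCAAT boxes, bound by NF-Y. E2F sites are known from genes of the G1/S transition. Windows of 300 bases (250 before the annotated start and 50 from it on) came from RefSeq on GRCm38.p6 and matched 33 of the 41 genes, with 37 windows. Not matched were Kif13b, Kif20a, Kif21b, Kif28, Kif5a, Kif5b, Kifc2 and Kifc3. Windows were thus at hand for 13 of the 14 spindle and cytokinesis kinesins but for only 11 of the 18 cargo transport kinesins. The letters searched on both strands were TTTGAA for the CHR, CCAAT for the CCAAT box, and TTTCCCGC, TTTCGCGC, TTTGCCGC and TTTGGCGC for the E2F site. They were chosen after the ratios were known, and 0 of the matches in kinesin windows overlapped each other.

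Among spindle and cytokinesis kinesins, 11 of 13 windows held the CHR letters. Among cargo transport kinesins 1 of 13 did (Kif1a, at one of its 2 starts), and among other kinesins 2 of 11. Over all 32851 windows in the table the share was 17.9%. By gene, the CHR counts were 11 of 13, 1 of 11 and 2 of 9. The windows of Kifc1 and Kifc5b are near-identical, and both count among the 11. The spindle and cytokinesis windows without the letters were those of Kif18a and Kif2b, the first with like signals on both arrays and the second below the floor. Kif14, Kif15 and Kifc5b held them and were at or below the floor, so the letters did not mark a lower signal in each case. CCAAT letters occurred in 9 of 13 spindle and cytokinesis windows and 4 of 13 cargo transport windows (3 of 11 genes), against 37.4% of all windows. Both motifs together occurred in 8 of 13 and 0 of 13, against 6.95% of all windows. The near-identical windows of Kifc1 and Kifc5b both count here too. So does Kif14, whose only CHR match began 228 bases before the start. E2F letters were found for Kif15 and Kif18a alone among kinesins, against 2.26% of all windows. These counts are a description of letters and no test was made.

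The windows below run 5′ to 3′ on the strand of the gene, from 110 bases before the annotated start to 30 bases from it on, with matches to any of the 3 motifs in capitals (TTCAAA and ATTGG are the CHR and CCAAT letters on the other strand). They show 5 spindle kinesins that were at least 2-fold lower, then Kif18a, then a pair of cargo transport kinesins from GRCm38.p6.
Kif11 (chr19:37376272-37376411, plus strand): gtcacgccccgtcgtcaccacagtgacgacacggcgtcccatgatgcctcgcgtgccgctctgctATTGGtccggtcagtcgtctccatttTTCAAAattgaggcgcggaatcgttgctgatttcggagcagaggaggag
Kif18b (chr11:102925095-102925234, minus strand): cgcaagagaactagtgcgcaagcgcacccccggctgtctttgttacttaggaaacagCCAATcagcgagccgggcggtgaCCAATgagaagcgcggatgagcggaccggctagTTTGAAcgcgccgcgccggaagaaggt
Kif20b (chr19:34922248-34922387, plus strand): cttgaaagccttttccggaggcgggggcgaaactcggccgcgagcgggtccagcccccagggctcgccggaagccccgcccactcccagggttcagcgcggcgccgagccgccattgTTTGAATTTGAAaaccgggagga
Kif22 (chr7:127042391-127042530, minus strand): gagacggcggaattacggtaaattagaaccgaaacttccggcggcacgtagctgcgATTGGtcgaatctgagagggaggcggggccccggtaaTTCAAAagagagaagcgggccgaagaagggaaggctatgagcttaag
Kif23 (chr9:61946770-61946909, minus strand): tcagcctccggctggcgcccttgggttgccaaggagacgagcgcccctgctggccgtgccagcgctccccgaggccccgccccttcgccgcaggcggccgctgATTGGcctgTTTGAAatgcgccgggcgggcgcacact
Kif18a (chr2:109280628-109280767, plus strand): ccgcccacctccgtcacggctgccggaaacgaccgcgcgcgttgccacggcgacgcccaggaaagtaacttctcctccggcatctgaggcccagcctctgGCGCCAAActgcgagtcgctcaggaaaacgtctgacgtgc
Kif3a (chr11:53567259-53567398, plus strand): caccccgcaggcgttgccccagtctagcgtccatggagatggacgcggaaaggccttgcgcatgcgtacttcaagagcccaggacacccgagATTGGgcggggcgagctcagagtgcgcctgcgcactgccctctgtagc
Kif21a (chr15:91049922-91050061, minus strand): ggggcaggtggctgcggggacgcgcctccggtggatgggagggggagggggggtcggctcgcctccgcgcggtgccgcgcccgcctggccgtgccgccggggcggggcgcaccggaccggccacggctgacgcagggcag
In each of the 5 lower genes shown, a CHR match lay close to the start. Matches began 19 bases before it in Kif11 and 17 before it in Kif22, and at base 4 after it in Kif18b, 3 in Kif23 and 8 and 14 in Kif20b. Kif22 had a further CHR match 215 bases before the start, and the only match of Kif2c, which was also lower, lay 103 bases before it. The Kif18a window held an E2F match that began 10 bases before the start, and the Kif3a window a CCAAT match 18 bases before it. The Kif21a window held none of the letters.

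**Figure D3:**
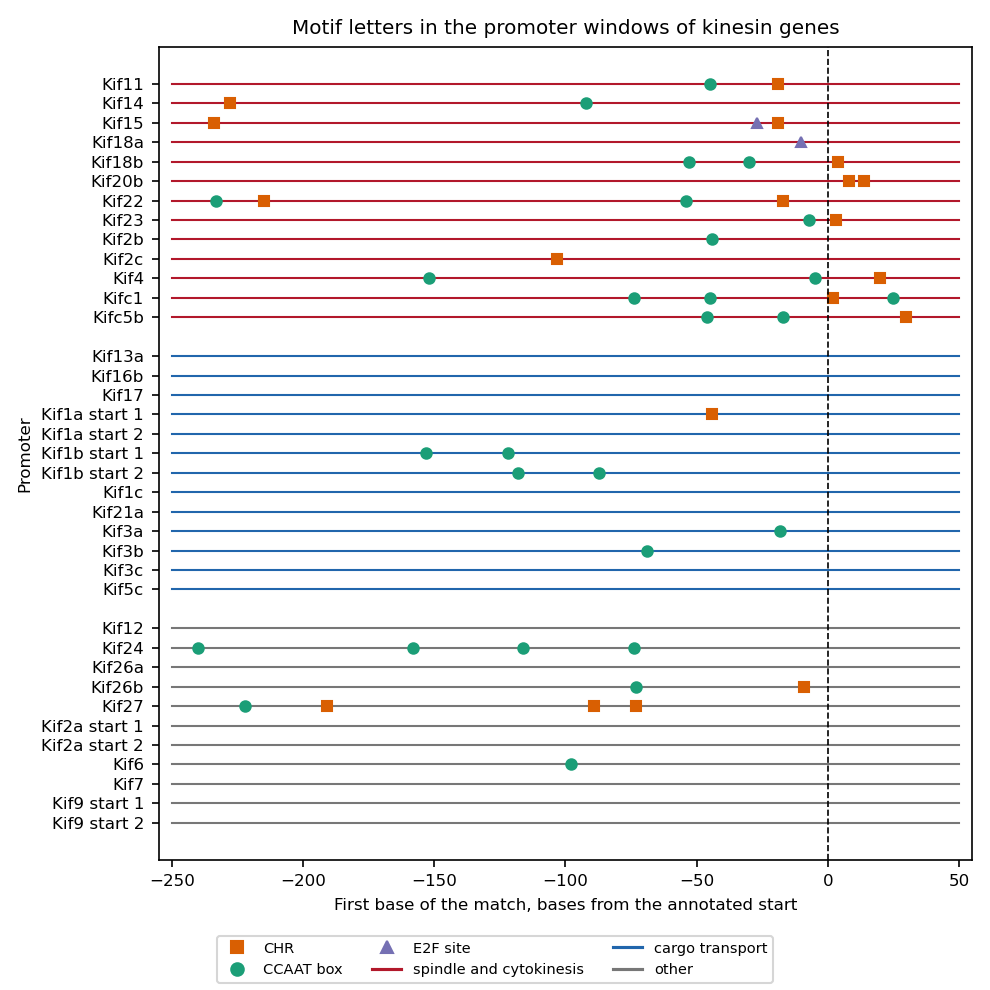
Position of each motif match (horizontal, bases from the annotated start, dashed line) in the 37 promoter windows of kinesin genes, each window drawn as a line coloured by the role of its gene. CHR matches (squares) appear in 11 of 13 spindle and cytokinesis windows and in 1 of 13 cargo transport windows.

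Cargo transport kinesins were described by family, beginning with kinesin-1, the conventional kinesin that hauls vesicles, mitochondria and mRNA particles. Its ubiquitous heavy chain Kif5b read 119 and 121 units. The 6 probe sets of Kif5b disagreed. They had log2 ratios from -0.68 (47.1 and 29.4 units) to 1.12 (29.1 and 63.2 units), with 5 of 6 above 0. The ratio on the brightest one, 0.018, turned negative when arrays were scaled by their medians, as did those of Kif3a, Kifc3 and Kif26b. The neuronal heavy chain Kif5c was below the floor on both arrays, and Kif5a read 2.02 and 12.1 units (log2 ratio at least 0.59) on a probe set open to cross-hybridisation. Its other pair of probe sets was below the floor.

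Kinesin-2 motors drive transport into cilia and of membrane cargo. Kif3a pairs with Kif3b or Kif3c to form the heterodimeric motor, which binds cargo through the adaptor Kifap3. Kif3a read 127 and 135 units, Kif3b 34.7 and 32.2 units, Kif3c 65.9 and 74.0 units, and Kifap3 268 and 251 units. These 4 subunits were all well inside 1.5-fold on their brightest probe sets. Dimmer probe sets of Kif3a went both ways, with log2 ratios of -0.21, 0.85 and 0.19, and the second probe set of Kif3c passed the floor, from 5.05 to 15.1 units. Kif17, the homodimeric kinesin-2, read 8.62 and 14.4 units, 1.67-fold higher from a signal at the floor, while a second probe set at the floor had a log2 ratio of -0.14.

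Kinesin-3 motors carry vesicles and endosomes over long distances. Kif1c, a fast motor found in many tissues, read 78.3 and 109 units, 1.39-fold higher, against a log2 ratio of -0.12 on a dimmer probe set. Kif1b, which moves mitochondria and synaptic vesicle precursors, read 67.2 and 94.4 units on its brightest probe set, 1.41-fold higher. The next brightest read 68.5 and 59.0 units, and 4 of the 6 above the floor on both arrays were lower, so the median over its measured probe sets was -0.15 and the gene has no settled direction. Kif13b, which binds the scaffold DLG1, read 23.2 and 32.6 units, 1.41-fold higher. Kif13a, a recycling endosome motor, read 40.0 and 32.5 units, 1.23-fold lower. Kif16b, an early endosome motor, read 36.4 and 40.5 units on a probe set open to cross-hybridisation and 8.61 and 18.9 units on one that is not, where it was 2.19-fold higher from a signal near the floor. The neuronal Kif1a went from 4.92 to 10.7 units, at least 1.33-fold higher, and Kif28 was below the floor. Among these motors no gene above the floor on both arrays reached 1.5-fold on its brightest probe set.

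The remaining transport motors belong to kinesin-4 and kinesin-14. Kif21a, which also limits microtubule growth, read 76.9 and 84.8 units and 35.2 and 41.5 units on its pair of bright probe sets, and Kif21b read 11.2 and 10.5 units. Kifc3, a minus-end motor linked to cell junctions, read 28.5 and 30.4 units. Kifc2, a minus-end motor first described in neurons, went from 14.5 units to 7.78, below the floor, and was at least 1.79-fold lower. On brightest probe sets, Kifc2 was thus the single cargo transport kinesin past 1.5-fold in that direction. Kif17 and Kif5a were the 2 past it in the other, and all of these were near the floor on at least 1 array. Dimmer probe sets of Kif5b (1.60-fold lower and 2.17-fold higher) and Kif3a (1.80-fold higher) also passed 1.5-fold, clear of the floor on both arrays. Over all measured genes 14.7% were lower by 1.5-fold or more, and 11.5% were higher by as much. Of the 8 neuronal markers examined, 0 were above the floor on both arrays. The 3 that reached it on 1 array were Syt1 (8.30 and 6.57 units), Rbfox3 (2.20 and 14.8 units) and Stmn2 (7.65 and 9.62 units). Syt1 was thus lower and the others higher, and the part of neuronal signal in the Kif1a and Kif5a values was not tested.

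Several families hold motors of more than one role. In kinesin-4, Kif4 had a log2 ratio of -0.90, Kif21a of 0.14, Kif21b of -0.099 and Kif7 of -0.34, while Kif27, below the floor after CCR4b RNAi, had at most -0.58 by its bound and -2.49 with the floor at the 25th percentile. In kinesin-14, Kifc1 had -1.21 and Kifc3 0.093, while Kifc2 had at most -0.84 by its bound. In kinesin-12, Kif15 and Kif12 exceeded the floor only slightly, and only after CCR4b RNAi, so they cannot be ordered, and in kinesin-3 the mitotic Kif14 has no ratio. In kinesin-13, Kif2c had -1.38, and Kif2a, which trims microtubules both at spindle poles and in growing neurites, had -0.60, with 114 and 74.9 units. Kif24 of the same family had -0.086, and Kif2b has no ratio. Kif2a was lower on each of the 4 probe sets whose signals both passed the floor, with log2 ratios from -0.74 to -0.16. Its brightest probe set was 1.52-fold lower, which fell short of 1.5-fold with quantile normalization (log2 ratio -0.49), loess (-0.48) and the median over its probe sets (-0.56).

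The other kinesins had no common direction, with 4 of 8 measured genes lower and 4 higher and a median log2 ratio of -0.035. Kif9, Kif12 and Kif27 passed the floor on 1 array only, which by itself fixed their direction. Among the 5 genes above it on both arrays, Kif2a, Kif7 and Kif24 were lower and Kif6 and Kif26b higher, with a median of -0.086. Kif6, a kinesin-9 of motile cilia, read 13.2 and 26.8 units, 2.04-fold higher, and was the 1 kinesin gene past 2-fold in that direction. It fell short of 2-fold with each of the 3 other scalings. Kif7, a regulator of Hedgehog signalling at the tip of the primary cilium, read 30.4 and 24.0 units, 1.27-fold lower. Its relative Kif27 went from 12.05 to 1.18 units, at least 1.49-fold lower on its only probe set with 1 symbol. Kif24, which restrains cilium formation at the mother centriole, read 14.6 and 13.8 units, and Kif26b, a kinesin-11 with a role in kidney development, 58.5 and 59.1 units. Kif9 (4.04 and 9.59 units) and Kif12 (1.02 and 8.32 units) passed the floor from below, and Kif26a stayed below it.

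Partners of the motors were counted on lists set by role. Of 22 measured spindle partners of mitotic kinesins, 15 were lower by 2-fold or more and 0 were higher by as much, beside 4.51% and 3.78% of all measured genes. Their median log2 ratio was -1.21, the same to the second decimal as that of the motors. Cenpe, the kinesin-7 that links kinetochores to microtubules and has no Kif symbol, read 60.7 and 24.8 units, 2.45-fold lower. The lowest ratios on the list were those of Ska1, a kinetochore protein at microtubule ends (4.31-fold lower, 83.7 and 19.4 units), Aurkb, the kinase of the chromosomal passenger complex (3.84-fold, on a probe set open to cross-hybridisation), and Aurka, a spindle pole kinase (3.61-fold). The list was drawn up with earlier results of these arrays in view, so its direction is no independent support.

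Light chains and cargo adaptors of the transport kinesins went both ways. Of 16 measured, 2 were lower by 2-fold or more and 0 were higher by as much, beside 4.51% and 3.78% of all measured genes. After CCR4b RNAi, Klc3 lay below the floor of 8.07 units and Mapk8ip1 just above it. The median log2 ratio of the list was 0.092. The kinesin-1 light chain Klc1 read 80.1 and 64.4 units, a log2 ratio of -0.32, whereas the median over its measured probe sets was 0.62. Klc4 read 27.0 and 34.1 units, and Klc3 went from 18.6 units to below the floor, at least 2.31-fold lower. Mapk8ip1, the kinesin-1 adaptor JIP1, read 16.7 and 8.17 units, 2.05-fold lower. Plekhm2, which couples lysosomes to kinesin-1, read 18.5 and 31.3 units, 1.69-fold higher.

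Dynein, the motor that runs the opposite way, differed little. Of 20 measured genes of cytoplasmic dynein and dynactin, 19 were within 1.5-fold, with a median log2 ratio of -0.046. The exception was Spdl1, an adaptor that recruits dynein to kinetochores in mitosis, at 46.2 and 18.4 units (2.51-fold lower). Over all measured genes, 14.7% were lower by 1.5-fold or more and 11.5% were higher by as much. Of 9 measured tubulins, which include the building blocks of the tracks, 3 were lower by 2-fold or more and 1 was higher by as much. The shares over all measured genes were 4.51% and 3.78%. Tubg1, which encodes the gamma-tubulin that nucleates microtubules, read 79.5 and 31.3 units, 2.54-fold lower, and Tubb6 read 347 and 167 units, 2.08-fold lower. Tubb4b read 577 and 281 units, 2.06-fold lower, but the median over its measured probe sets was -0.19. With quantile normalization and with loess, Tubb4b (-0.86 in both) and Tubb6 (-0.88 in both) fell short of 2-fold. Tubb2b, a beta-tubulin, read 28.1 and 69.1 units, 2.46-fold higher.

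**Figure D4:**
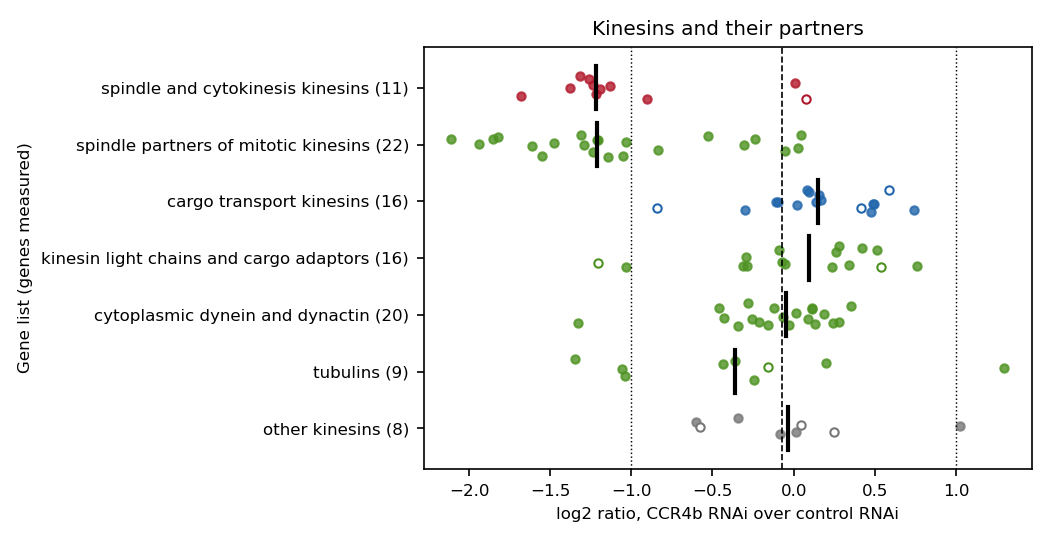
log2 ratio of CCR4b RNAi over control RNAi (horizontal) of every measured gene on 7 lists of motors and partners, with the number measured in brackets. Open circles are bounds against the floor, black bars are list medians, the dashed line is the median of all measured genes and dotted lines mark 2-fold. Vertical scatter within a list has no meaning. The medians of the spindle and cytokinesis kinesins and of their spindle partners both lie at -1.21, while those of cargo transport kinesins and of dynein and dynactin lie within 0.15 of 0.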

How the data were processed

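The 2 cultures were each measured on 1 Affymetrix mouse GeneChip and grouped by the knockdown label. Values were deposited as linear probe set intensities, which the authors computed in GCOS with a global normalization, per the series design text. Its version and scaling target are not stated there. Array number limits the precision. Gene symbols came from the platform annotation (34958 probe sets with 1 symbol, 932 with several, 9211 not listed), of which 34754 matched the GRCm38.p6 RefSeq table by gene ID with 0 changes of symbol. Probe sets with several symbols or none were not used. No genome build is named for the array values.

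Intensities were raised to the floor (50th percentile of all values, 8.07 units) and expressed as log2 of the depleted over the control signal in Python 3.11.15 (pandas 2.3.3, loess by statsmodels 0.14.6). Robust SDs were taken in 10 classes of mean signal. Every member of the rule is accounted for. Of the partner lists, Cenpe, Kifap3, the light chains and up to 3 genes per direction past 1.5-fold are named. The members, lists and tests were chosen with earlier results of these data known. The procedure was tested on simulated data with changes placed only in genes far above the floor, so recovery in dimmer genes was not tested. Alternatives were array-median scaling, quantile normalization, loess (span 0.3), a floor at the 25th or at the 75th percentile, log2 of signal plus 1, the median over probe sets, leaving out probe sets ending in _x_at or _s_at (which can cross-hybridise), and a 1.5-fold threshold.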

Additional observations from a re-analysis of the deposited data

How the results depend on the processing

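The medians of the 3 kinesin groups, the difference between the spindle and cytokinesis and the cargo transport medians, and the count of 0 spindle kinesins at least 2-fold higher moved by less than the spread between probe sets of 1 gene (0.30 log2 units) or not at all under the 8 alternatives in scaling, floor and probe set. The median of the spindle and cytokinesis kinesins ranged from -1.31 to -0.95 and that of the cargo transport kinesins from 0.053 to 0.24. The count of spindle and cytokinesis kinesins at least 2-fold lower was 8 and became 4 with the floor at the 75th percentile, where more of the lower signals are raised to the floor. The count of other kinesins at least 2-fold higher (1) became 0 with array-median scaling, quantile normalization, loess and the 75th percentile floor, 3 with the 25th percentile floor and 2 without a floor. The count of cargo transport kinesins at least 2-fold higher (0) became 3 with the 25th percentile floor, 2 without a floor and 1 without _x_at and _s_at probe sets, and other kinesins at least 2-fold lower (0) became 1 with the 25th percentile floor and without a floor. Over all measured genes, 1845 of 16289 were at least 2-fold higher with the 25th percentile floor and 2038 of 18194 without a floor. Lower by as much were 1820 and 2066 genes. At 1.5-fold, 1 cargo transport and 1 other kinesin were lower and 2 cargo transport kinesins were higher. Of 382 values of 51 named genes under these alternatives, 20 moved by more than the robust SD of genes of like signal and 12 changed sign, 0 of them in genes past 1.5-fold. No paired analysis was possible because each group holds 1 array. Signals near the floor limit Kif12, Kif15, Kif1a, Kif5a, Kif9 and Kif27, whose log2 ratios depend on where the floor is set.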

Other observations

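The CHR letters were also counted across all measured genes with a promoter window. Of 1381 genes with TTTGAA on either strand in at least 1 window, 8.47% were lower by 2-fold or more after CCR4b RNAi and 3.98% were higher by as much. Of 8343 genes without it, the shares were 3.92% and 3.68%. With the kinesins left out, 8.04% of the 1369 remaining genes with the letters were at least 2-fold lower. Of 665 genes with both CHR and CCAAT letters, 11.3% were at least 2-fold lower, 75 genes in all. Genes share pathways and the pair of arrays, so these shares are a description and were not tested.

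A probe set annotated to Kif27 together with another gene was left out by the rule on single symbols.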
